A study of Mus musculus with 2 samples.

Results

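The genes described here make the activated sugars and the sugar trees of the cell's glycoproteins. They were taken from a list of 44 genes for UDP-sugar synthesis, O-GlcNAc cycling, nucleotide-sugar transport and N-glycan synthesis. All 44 were found by Ensembl identifier among the 45318 genes of the deposited count table. The gene for the O-GlcNAc hydrolase, also called Oga, is given here under the symbol Mgea5.

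Leukaemia cells carrying the MLL/AF9 fusion and GFP were sorted on GFP from the marrow of leukaemic C57Bl/6 mice, and their polyadenylated RNA was sequenced with a strand-preserving kit. The brequinar group is 1 library from mice given brequinar, an inhibitor of the pyrimidine enzyme dihydroorotate dehydrogenase, and the vehicle group is 1 library from mice given vehicle. Both groups share the strain, the fusion gene, GFP and the sort, so neither is a normal marrow control. The sources used here give no dose, no duration, no age and no number of mice per library.

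UDP-sugars are made from UTP, a pyrimidine nucleotide, and serve as sugar donors. The hexosamine pathway turns fructose phosphate, glutamine, acetyl-CoA and UTP into UDP-GlcNAc, which Ogt attaches to nuclear and cytosolic proteins and which the endoplasmic reticulum and Golgi use to build N-glycans. An N-glycan is first assembled on the lipid dolichol, then moved as a block onto asparagines of a nascent protein, trimmed, and branched in the Golgi.

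The brequinar library held 47950714 gene counts and the vehicle library 47935476. Levels are given as normalised CPM, the counts of a gene scaled to library size, after TMM scaling, and a ratio is brequinar over vehicle. The 95% interval given after a ratio covers counting error alone, because no spread between animals can be estimated from 1 library per group and amplified reads that carry no molecular identifier are not independent molecules. No p-value is given for the same reason. Genes averaging 1 CPM or more over the libraries count as measured, 11504 in all, of which 6.45% were at least 2-fold higher and 4.40% at least 2-fold lower in the brequinar library. Marker genes of other cell states differed between the libraries: 11 of 11 neutrophil maturation markers were at least 2-fold higher with brequinar (summed level 24909 CPM, against 1806 CPM with vehicle), and 5 of 6 progenitor markers were at least 2-fold lower (2822 CPM with brequinar, 9385 CPM with vehicle). The progenitor sum is mostly Mpo (979 CPM with brequinar, 5912 CPM with vehicle) and Elane (1702 CPM with brequinar, 3098 CPM with vehicle). Elane was the progenitor marker not called. Erythroid markers (11 of 12 measured, all 11 at least 2-fold higher, summed level 289 CPM with brequinar and 83.1 CPM with vehicle) and macrophage markers (9 of 10 measured, 7 at least 2-fold higher) also differed, and none of either list was at 0. The macrophage sum of 787 CPM with brequinar and 597 CPM with vehicle is mostly Vcam1 (496 CPM with brequinar, 369.6 CPM with vehicle) and Adgre1 (225 CPM with brequinar, 221 CPM with vehicle), which were not called. The 7 called macrophage markers were low, with Axl the highest, at 18.3 CPM with brequinar and 1.84 CPM with vehicle. The leukaemia-associated genes were near level: Hoxa9 was at 231 CPM with brequinar and 238 CPM with vehicle, and Meis1 at 87.4 CPM with brequinar and 71.6 CPM with vehicle. Markers of other lineages were low, with summed levels of 19.2 CPM with brequinar and 31.7 CPM with vehicle for B cells, 2.54 CPM with brequinar and 0.707 CPM with vehicle for T and NK cells, and 9.64 CPM with brequinar and 27.1 CPM with vehicle for stroma and endothelium. Single genes carried the gaps of the B cell and stromal sums: Cd79b was at 9.86 CPM with brequinar and 26.2 CPM with vehicle, and Pecam1 at 6.76 CPM with brequinar and 25.1 CPM with vehicle. Some low markers of these lists went the other way, such as Igll1 at 1.49 CPM with brequinar and 0.202 CPM with vehicle and Lepr at 0.667 CPM with brequinar and 0.0808 CPM with vehicle. The part of these cell markers in the values below was not tested, and in bulk RNA fewer cells of a type and less RNA per cell cannot be told apart.

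Of the 44 genes, 43 were measured, and all 43 lay above a mean of 10 CPM. None was called at 2-fold in either direction. At 1.5-fold, Ugp2 was higher with brequinar and Rpn1 and Mgat5 were lower, and the whole counting interval of each of these 3 lay beyond 1.5-fold. Over all measured genes the same 1.5-fold threshold was passed by 12.7% upward and 12.7% downward, and over the 8458 genes averaging 10 CPM or more, a background added after these levels were seen, by 10.3% upward and 7.63% downward. The count of 3 among 43 was thus below that background. The log2 ratio was above 0 for 15 of the 43 genes and below 0 for 28, that is 65.1%, where 49.9% of all measured genes were below 0. Their median log2 ratio was -0.11, and the median over all measured genes was 0.00. Among all genes averaging 10 CPM or more, 46.9% were below 0 and the median was 0.03. Most differences were small: the median size of the log2 ratio, sign ignored, was 0.22 among the 43 genes and 0.25 among all genes averaging 10 CPM or more. As a share of gene counts, without TMM scaling, the 44 genes took 0.423% of the brequinar library and 0.519% of the vehicle library. The part of each role in that gap was not computed without TMM scaling. After TMM scaling, the oligosaccharyltransferase and glucosidase genes summed to 2417 CPM with brequinar and 3090 CPM with vehicle. All other roles summed to 1948 CPM with brequinar and 1935 CPM with vehicle, a split made after the values were seen. The latter sums include Ugp2, at 225 CPM with brequinar and 124 CPM with vehicle. Of the 35 measured genes in those other roles, 20 were below 0.

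**Figure D1:**
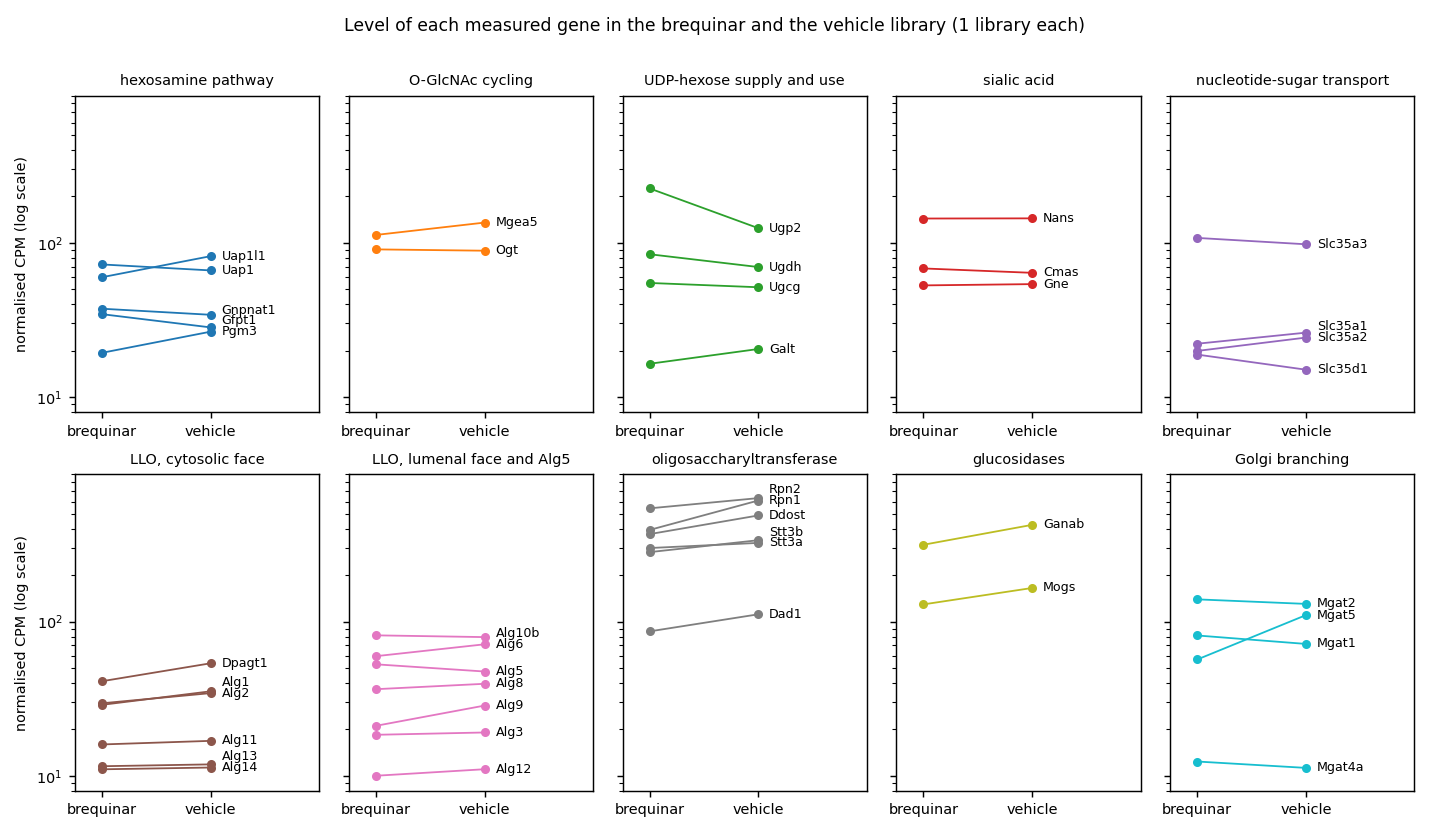
Normalised CPM on a log axis for each of the 43 measured genes in the brequinar library (left point of each line) and the vehicle library (right point), in 1 panel per role (LLO stands for lipid-linked oligosaccharide). The steepest lines are Ugp2, at 225 CPM with brequinar and 124 CPM with vehicle, and Mgat5, at 56.8 CPM with brequinar and 110.1 CPM with vehicle.

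In the hexosamine pathway, the entry enzyme was slightly higher with brequinar and the mutase step lower. Gfpt1, which makes glucosamine phosphate from fructose phosphate and glutamine and sets the pace of the pathway, had 1599 counts (34.4 CPM) with brequinar and 1398 counts (28.3 CPM) with vehicle, for a ratio of 1.22 (1.13 to 1.31). Its paralogue Gfpt2 had 0 counts in both libraries, which allows up to 0.0646 CPM with brequinar and 0.0606 CPM with vehicle, so the amidotransferase counts of both libraries were those of Gfpt1. Gnpnat1, which acetylates glucosamine phosphate, was at 37.4 CPM with brequinar and 34.1 CPM with vehicle. The gene shares annotated exon sequence on its own strand with another gene, so part of its count may be assigned ambiguously.

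Pgm3, the mutase that moves the phosphate on N-acetylglucosamine, had 899 counts (19.4 CPM) with brequinar and 1313 counts (26.5 CPM) with vehicle. The brequinar library was lower, with a ratio of 0.729 (0.669 to 0.795) and a log2 ratio of -0.45. Uap1 makes UDP-GlcNAc itself, consuming UTP, and stood at 72.3 CPM with brequinar and 66.2 CPM with vehicle. Uap1l1, a related protein, went the other way: it had 2779 counts (59.8 CPM) with brequinar and 4053 counts (81.9 CPM) with vehicle, for a ratio of 0.730 (0.696 to 0.767). Per kilobase of the longest annotated transcript, the level of Uap1 was 1.75 times that of Uap1l1 with brequinar and 1.17 times with vehicle. With the length of all annotated exons in its place, this comparison gave 1.23 with brequinar and 0.820 with vehicle, so the order of the pair in the vehicle library depended on the length used. Summed over the 5 measured genes, the pathway stood at 223 CPM with brequinar and 237 CPM with vehicle, with 3 genes above 0 and 2 below.

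On nuclear and cytosolic proteins, O-GlcNAc is put on by 1 enzyme and taken off by 1 enzyme. Ogt, the transferase, had 4208 counts (90.6 CPM) with brequinar and 4395 counts (88.8 CPM) with vehicle, for a ratio of 1.02 (0.977 to 1.06) whose interval spans equality. Its sign depended on scaling, since the log2 ratio was 0.03 with TMM and -0.06 when only total counts were used. Mgea5, the hydrolase, had 5221 counts (112 CPM) with brequinar and 6688 counts (135 CPM) with vehicle, for a ratio of 0.832 (0.802 to 0.862). Per kilobase the level of Ogt was 0.757 times that of Mgea5 with brequinar and 0.617 times with vehicle, so the hydrolase RNA was the more abundant of the pair in both libraries. Ogt lies on chromosome X, as do Slc35a2 and Alg13, and the X-linked RNA Xist also differed, at 119.8 CPM with brequinar and 294 CPM with vehicle. The Y-linked genes differed the opposite way, with Ddx3y at 2.196 CPM with brequinar and 0.626 CPM with vehicle and Eif2s3y at 2.497 CPM with brequinar and 0.384 CPM with vehicle. The part of these differences in the X-linked values was not tested.

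Among the genes of UDP-hexose supply and use, Ugp2 stood out. Ugp2 joins glucose phosphate and UTP into UDP-glucose, the donor for glycogen, glucosylceramide and, after epimerisation or oxidation, for galactose and glucuronic acid transfer. The gene lies at chr11:21321138-21371201 (GRCm38, minus strand), and its RNA had 10449 counts (225 CPM) with brequinar and 6153 counts (124 CPM) with vehicle, for a ratio of 1.81 (1.75 to 1.87) and a log2 ratio of 0.85. It was the only gene of the 44 at least 1.5-fold higher with brequinar, and it ranked 4 of 43 by level per kilobase in the brequinar library and 10 of 43 in the vehicle library. An annotated gene on the opposite strand, Gm12043, overlaps its exons, and the sources used here do not say whether the counting separated strands. The same limit holds for Gnpnat1, Pgm3, Mgea5, Galt, Nans, Slc35a1, Alg1, Alg3, Alg9, Rpn1, Rpn2, Mgat2 and Mgat5. An overlap on the same strand was annotated for Ugdh, Slc35a3 and Alg10b, as for Gnpnat1.

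The other genes that make or consume UDP-hexoses differed less. Ugdh, which oxidises UDP-glucose to UDP-glucuronic acid, was at 84.2 CPM with brequinar and 69.6 CPM with vehicle, a ratio of 1.21. Galt, the uridylyltransferase that brings galactose into the pool, was at 16.4 CPM with brequinar and 20.5 CPM with vehicle, a ratio of 0.802. Ugcg, which transfers glucose from UDP-glucose to ceramide, had 2549 counts (54.9 CPM) with brequinar and 2547 counts (51.5 CPM) with vehicle, for a ratio of 1.07 (1.01 to 1.13). Of these 4 genes, 3 were above 0 and 1 below, and their summed level was 380.5 CPM with brequinar and 266 CPM with vehicle, a gap that is mostly Ugp2.

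The 3 sialic acid genes were nearly level between the libraries. Gne, the bifunctional enzyme that starts from UDP-GlcNAc, had 2458 counts (52.9 CPM) with brequinar and 2669 counts (53.9 CPM) with vehicle, for a ratio of 0.981 (0.928 to 1.04). Nans, the sialic acid phosphate synthase, was at 143.6 CPM with brequinar and 144.0 CPM with vehicle, the smallest difference of all 43 genes. Cmas, which activates sialic acid with CTP, had 3166 counts (68.2 CPM) with brequinar and 3159 counts (63.8 CPM) with vehicle, for a ratio of 1.07 (1.02 to 1.12). The intervals of Gne and Nans span equality.

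The nucleotide-sugar transporters split evenly. Slc35d1, which carries UDP-glucuronic acid and UDP-GalNAc into the endoplasmic reticulum, had 875 counts (18.8 CPM) with brequinar and 744 counts (15.04 CPM) with vehicle, for a ratio of 1.25 (1.13 to 1.38). Slc35a3, the UDP-GlcNAc transporter of the Golgi, was at 107.5 CPM with brequinar and 97.8 CPM with vehicle. These 2 transporters were the higher pair with brequinar. Slc35a1, the CMP-sialic acid transporter, had 1029 counts (22.2 CPM) with brequinar and 1293 counts (26.1 CPM) with vehicle, for a ratio of 0.848 (0.780 to 0.921). Slc35a2, the UDP-galactose transporter, was at 19.9 CPM with brequinar and 24.3 CPM with vehicle.

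**Figure D2:**
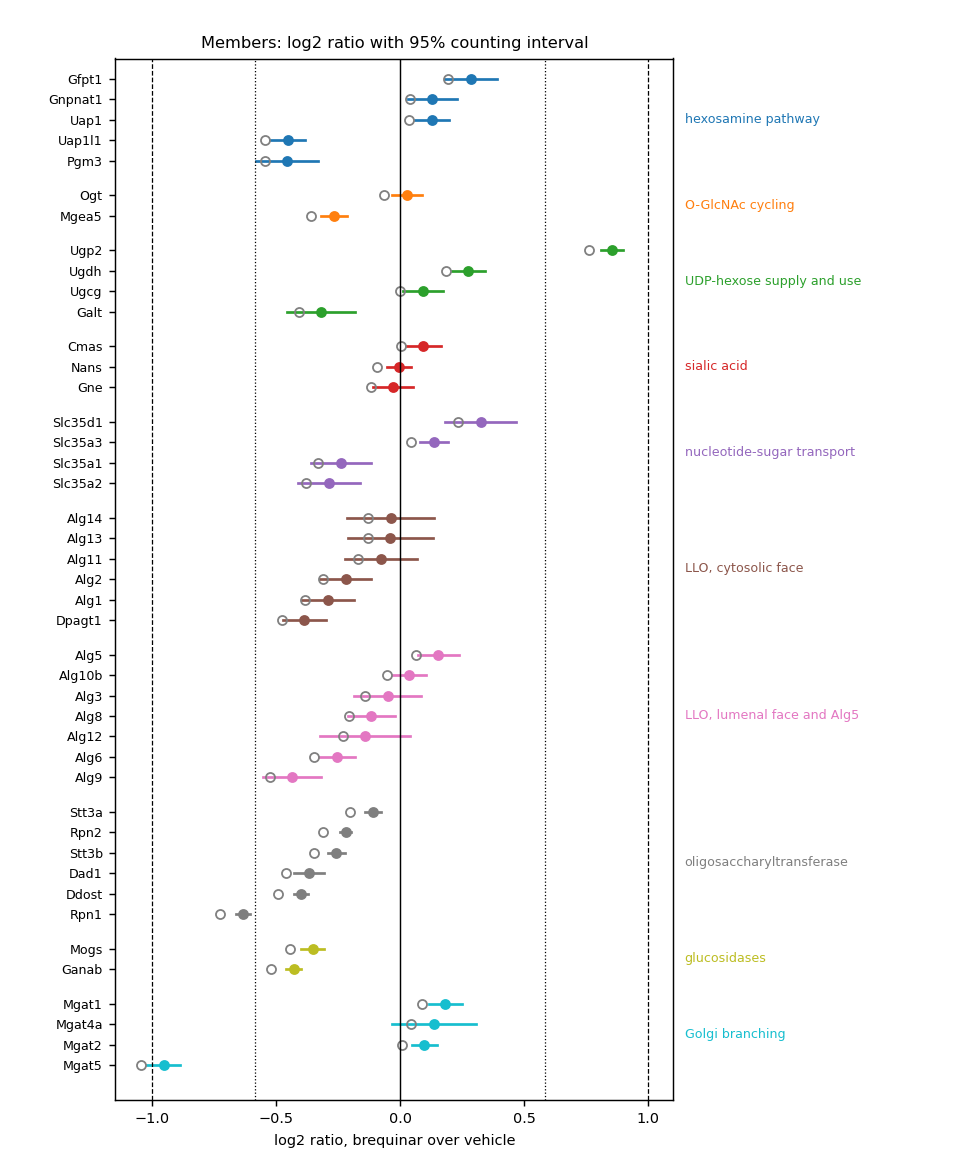
Log2 ratio of brequinar over vehicle for the 43 measured genes by role; filled points with bars show TMM scaling with the 95% counting interval, open circles show scaling by total counts alone, dotted lines mark 1.5-fold and dashed lines 2-fold. The 6 oligosaccharyltransferase genes and both glucosidases lie left of 0, Ugp2 at 0.85 lies far right, and Mgat5 passes the left 2-fold line with total counts alone.

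Assembly of the lipid-linked oligosaccharide begins on the cytosolic face of the endoplasmic reticulum, and all 6 genes of that face were below 0, with a median log2 ratio of -0.15. Dpagt1, which takes GlcNAc phosphate from UDP-GlcNAc to dolichol phosphate and commits the pathway, had 1908 counts (41.1 CPM) with brequinar and 2656 counts (53.7 CPM) with vehicle, for a ratio of 0.765 (0.721 to 0.812). Alg13 and Alg14 form the enzyme that adds the next GlcNAc, and both were almost level. Alg13 was at 11.5 CPM with brequinar and 11.9 CPM with vehicle, and Alg14 at 11.02 CPM with brequinar and 11.3 CPM with vehicle. The mannosyltransferase Alg1 was at 28.9 CPM with brequinar and 35.3 CPM with vehicle, and Alg2, which acts after it, at 29.5 CPM with brequinar and 34.4 CPM with vehicle. Both were lower with brequinar, with intervals short of equality. Alg11, the last mannosyltransferase of this face, had 742 counts (16.0 CPM) with brequinar and 834 counts (16.9 CPM) with vehicle, for a ratio of 0.948 (0.857 to 1.05). The intervals of Alg13, Alg14 and Alg11 span equality, so the shared sign of the 6 genes rests on Dpagt1, Alg1 and Alg2.

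On the lumenal face, 5 of 7 genes were below 0 and the median log2 ratio was -0.12. Alg3, the first lumenal mannosyltransferase, had 857 counts (18.4 CPM) with brequinar and 945 counts (19.1 CPM) with vehicle, for a ratio of 0.966 (0.880 to 1.06). Alg9, which adds further mannoses, had 980 counts (21.1 CPM) with brequinar and 1412 counts (28.5 CPM) with vehicle, for a ratio of 0.739 (0.681 to 0.803). It showed the lowest ratio of the oligosaccharide assembly genes of either face. Alg12, which adds the remaining branch mannose, was at 10.01 CPM with brequinar and 11.03 CPM with vehicle, with an interval of the ratio that spans equality.

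The glucosylation steps that finish the oligosaccharide were mixed. Alg5 makes the dolichol-linked glucose donor from UDP-glucose and was at 52.8 CPM with brequinar and 47.5 CPM with vehicle. Alg6, the first glucosyltransferase, was at 59.7 CPM with brequinar and 71.2 CPM with vehicle, and Alg8, which follows it, at 36.4 CPM with brequinar and 39.5 CPM with vehicle. Alg10b, which adds the terminal glucose recognised by the oligosaccharyltransferase, had 3783 counts (81.4 CPM) with brequinar and 3925 counts (79.3 CPM) with vehicle, for a ratio of 1.03 (0.982 to 1.07). Like Ogt, it turned sign with total counts alone, at a log2 ratio of -0.05. Ogt and Alg10b were the only 2 of the 43 genes whose sign changed under any alternative that was run, but every other scaling shifted all ratios downward, so a gene below 0 could not turn under those.

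The oligosaccharyltransferase moves the finished oligosaccharide onto asparagine, and all 6 of its genes on the list were lower in the brequinar library, with a median log2 ratio of -0.31. Rpn1, the ribophorin that presents some substrates to the enzyme, differed most: at chr6:88084482-88105304 (GRCm38, plus strand), it had 18255 counts (393 CPM) with brequinar and 30165 counts (609.6 CPM) with vehicle, for a ratio of 0.645 (0.633 to 0.657) and a log2 ratio of -0.63. Ddost, a structural subunit needed for complex stability, had 17151 counts (369 CPM) with brequinar and 24132 counts (488 CPM) with vehicle, for a ratio of 0.757 (0.742 to 0.772). Dad1, a small subunit first named for its defence against apoptosis, had 4015 counts (86.4 CPM) with brequinar and 5517 counts (111.5 CPM) with vehicle, for a ratio of 0.775 (0.744 to 0.808). All 3 were lower with brequinar by more than their counting intervals.

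The catalytic subunits were closer to level than these 3 partners. Stt3a, the catalytic subunit that works alongside the translocon during translation, had 13929 counts (299.9 CPM) with brequinar and 16020 counts (324 CPM) with vehicle, for a ratio of 0.926 (0.905 to 0.947). Stt3b, which also glycosylates sites skipped by the other form, was at 282 CPM with brequinar and 337 CPM with vehicle, a ratio of 0.837 (0.818 to 0.857). Rpn2, the second ribophorin, was at 542 CPM with brequinar and 632 CPM with vehicle, a ratio of 0.858. Per kilobase the level of Stt3a was 0.765 times that of Stt3b with brequinar and 0.691 times with vehicle (by all annotated exons, 0.501 with brequinar and 0.453 with vehicle). The corresponding level of Rpn1 was 0.550 times that of Rpn2 with brequinar and 0.732 times with vehicle (by all annotated exons, 0.711 with brequinar and 0.947 with vehicle), so the ribophorins did not keep the same proportion in the pair of libraries. Together the 6 genes summed to 1973 CPM with brequinar and 2501 CPM with vehicle.

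Both glucosidases that trim the transferred oligosaccharide were also lower. Mogs, glucosidase I, removes the outermost glucose, and it had 6005 counts (129 CPM) with brequinar and 8171 counts (165 CPM) with vehicle, for a ratio of 0.783 (0.757 to 0.810). Ganab, the catalytic subunit of glucosidase II, had 14629 counts (315 CPM) with brequinar and 20967 counts (424 CPM) with vehicle, for a ratio of 0.743 (0.728 to 0.759). Read together, the transferase and glucosidase genes were below 0 in 8 of 8 cases with a median log2 ratio of -0.36, and the other 35 measured genes in 20 of 35 cases with a median of -0.04. This split by role followed inspection of the values, so it carries no test.

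**Figure D3:**
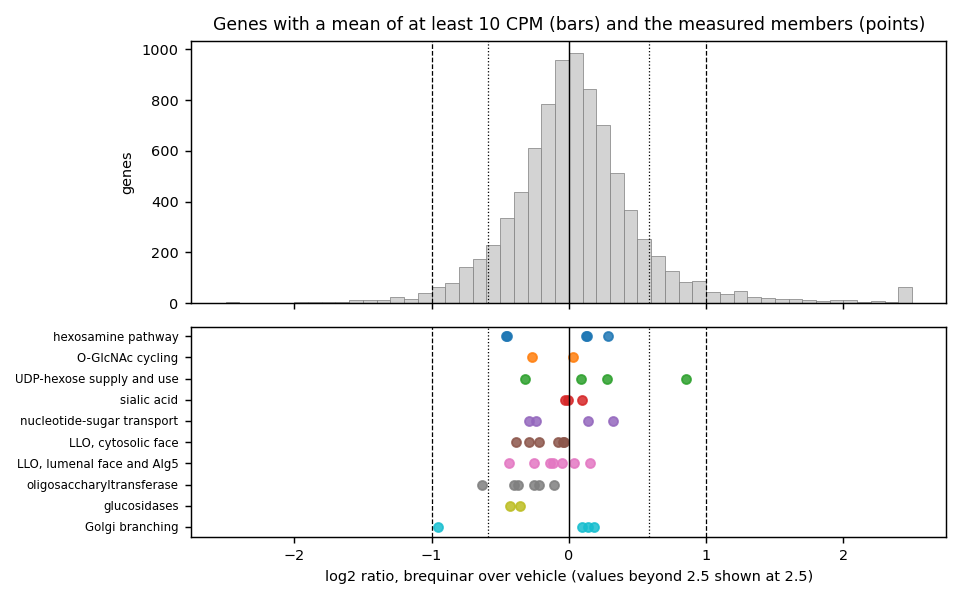
Top: number of genes by log2 ratio of brequinar over vehicle among the 8458 genes averaging 10 CPM or more; bottom: each of the 43 measured genes as a point in its role, with dotted lines at 1.5-fold and dashed lines at 2-fold. Of the 43 points, 40 lie between the 1.5-fold lines, and Mgat5 at -0.95, Rpn1 at -0.63 and Ugp2 at 0.85 lie beyond them.

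The 250 bases before the RefSeq starts (GRCm38.p6) of the oligosaccharyltransferase genes were searched for short promoter patterns on both strands. The pentamer CCAAT, the core of the box bound by the factor NF-Y, was present before all 6. It was present before 37.5% of the 27025 genes with a RefSeq promoter. Of the genes that have one, 19 of the 38 listed genes and 23 of the 57 genes of the wider list held it. The 27025 genes were not limited to those measured here, and no share among measured genes was computed. The 6 genes were searched because their values lay on the same side, so the count of 6 is a description with no test. The stretches around CCAAT are shown for the 4 genes where it lies outside the annotated gene body. The pentamer, or its reverse complement ATTGG, is in capitals, and each sequence is read 5′ to 3′ on the strand of its gene. They are at chr9:115310584-115310638 on the minus strand for Stt3b, chr4:138304651-138304705 on the plus strand for Ddost, chr6:88084442-88084472 on the plus strand for Rpn1 and chr2:157278979-157279016 on the plus strand for Rpn2.
Stt3b: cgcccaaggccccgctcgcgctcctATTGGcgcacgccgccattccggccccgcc
Ddost: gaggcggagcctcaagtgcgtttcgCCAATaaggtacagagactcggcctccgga
Rpn1: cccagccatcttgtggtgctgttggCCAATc
Rpn2: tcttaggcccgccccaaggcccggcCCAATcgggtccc

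The copy shown is the one nearest the RefSeq start outside the gene body, and Ddost and Rpn2 hold 3 copies each in the 250 bases. It began 145 bases before the start in Stt3b, 62 in Ddost, 6 in Rpn1 and 94 in Rpn2. For Stt3a and Dad1 it was found before the RefSeq start but reached into the GENCODE span of the gene, and no sequence is shown. A longer pattern, CCAAT followed by 9 bases of any kind and then CCACG, is known as the endoplasmic reticulum stress element and is read by NF-Y with ATF6. It occurred before 35 of the 27025 genes, or 0.130%, and none of these was an oligosaccharyltransferase gene. On the list it occurred only before Alg12, and in the wider set of the same pathways before Canx and Calr, the chaperones calnexin and calreticulin that hold glucosylated glycoproteins. Their stretches are shown to let the elements be compared with the pentamers above, again with the 2 outer blocks in capitals. They are at chr15:88819502-88819556 for Alg12, chr11:50325782-50325836 for Canx and chr8:84847057-84847111 for Calr, all on the minus strand, and in Calr the element runs in reverse complement.
Alg12: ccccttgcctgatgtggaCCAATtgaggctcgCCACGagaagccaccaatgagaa
Canx: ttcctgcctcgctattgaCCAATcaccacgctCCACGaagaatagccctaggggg
Calr: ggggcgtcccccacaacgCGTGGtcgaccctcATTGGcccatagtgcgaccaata

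The 3 genes with the full element differed in their values. Alg12 had a ratio of 0.907 (0.800 to 1.03), an interval that spans equality, whereas Canx was at 680.5 CPM with brequinar and 839.8 CPM with vehicle and Calr at 1213 CPM with brequinar and 2300.4 CPM with vehicle. The block CCACG alone was found before 31.0% of the 27025 genes, 16 of the 38 listed genes and 26 of the 57 wider-list genes. The GC box core GGGCGG was found before 35.4% of the 27025 genes, 28 of the 38 and 39 of the 57. It was found before 4 of the 6 oligosaccharyltransferase genes. CACGTG, the E box, was found before 6.86% of the 27025 genes. On the list it was before Galt alone, and on the wider list before 11 of the 57 genes. A gene with several RefSeq starts counts if any of them has the pattern. None of the 38 listed genes had TGACGTCA (1.77% of all), TGACGTGG (0.603%), TGATGNAA (3.91%), or ATTGG followed by 1 base and CCACG (0.0370%). The spaced patterns contain the pentamers, so those counts overlap. These matches describe letters and not bound sites, and their part in the values was not tested.

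In the Golgi, 3 of the 4 branching genes were close to level and slightly above 0, and Mgat5 had the largest difference on the list. Mgat1, which opens the route to hybrid and complex glycans, had 3775 counts (81.3 CPM) with brequinar and 3545 counts (71.6 CPM) with vehicle, for a ratio of 1.13 (1.08 to 1.19). Mgat2, which starts the opposite antenna, was at 139 CPM with brequinar and 130.2 CPM with vehicle. Mgat4a, a further branching enzyme, was at 12.4 CPM with brequinar and 11.3 CPM with vehicle, with an interval that spans equality.

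Mgat5 adds the branch that is extended with poly-N-acetyllactosamine and bound by galectins. The gene lies at chr1:127205015-127488336 (GRCm38, plus strand) and had 2638 counts (56.8 CPM) with brequinar and 5446 counts (110.1 CPM) with vehicle. The brequinar library was lower, with a ratio of 0.516 (0.492 to 0.541) and a log2 ratio of -0.95. Its call depended on scaling: with total counts alone the log2 ratio was -1.05, past 2-fold, and Mgat5 was then the only gene of the 44 called lower. Its exons overlap those of Tmem163 on the opposite strand. Per kilobase, Mgat5 was at 6.73 CPM with brequinar and 13.0 CPM with vehicle, against 25.8 CPM with brequinar and 22.7 CPM with vehicle for Mgat1.

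Levels per kilobase of transcript ranged widely along the pathway. Rpn2 led with brequinar, at 197 CPM per kilobase, against 229 with vehicle. Ddost was at 174 CPM per kilobase with brequinar and 230.0 with vehicle, and the vehicle levels of the pair were nearly equal. That order rests on the length used: by all annotated exons Ddost led in both libraries, at 174 CPM per kilobase with brequinar and 230.0 with vehicle, and Rpn2 was at 122 with brequinar and 143 with vehicle. Rpn1 was the third in both, at 108 CPM per kilobase with brequinar and 168 with vehicle. Ugp2 came next with brequinar, at 83.8 CPM per kilobase, against 46.3 with vehicle. At the low end, Alg13 stood at 2.77 CPM per kilobase with brequinar and 2.85 with vehicle, and Mgat4a at 1.71 with brequinar and 1.55 with vehicle. The median of the 43 genes was 16.4 CPM per kilobase with brequinar and 16.5 with vehicle.

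**Figure D4:**
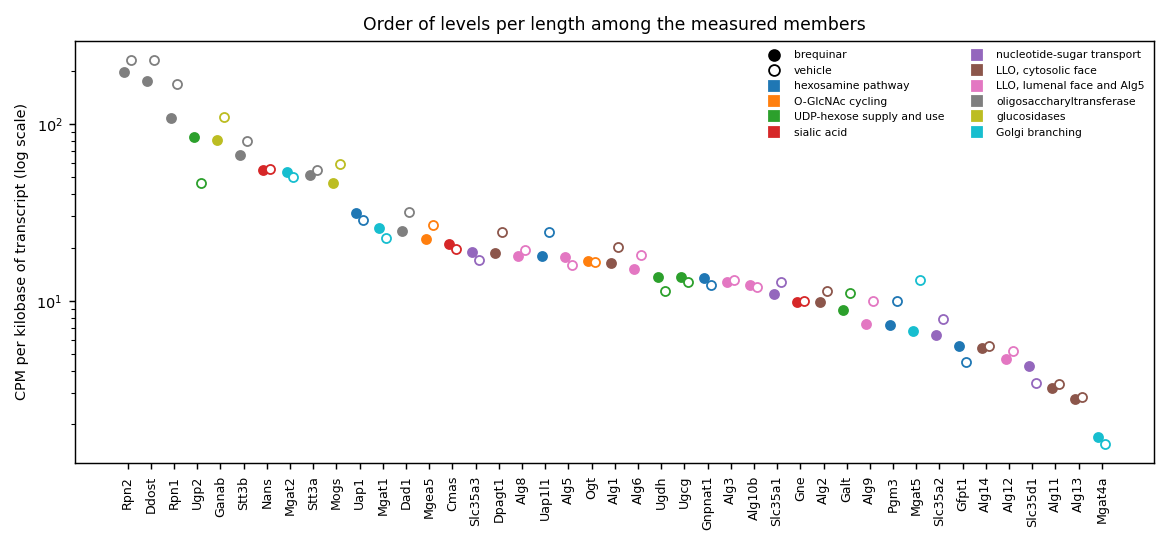
CPM per kilobase of the longest annotated transcript on a log axis for the 43 measured genes, ordered by level in the brequinar library; filled circles are brequinar, open circles vehicle, and colours mark roles. The oligosaccharyltransferase genes Rpn2, Ddost and Rpn1 lead in both libraries, and Mgat4a is lowest in both.

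A wider list of 76 genes around the same steps placed these values in their pathway. Of the 76, 72 were measured, 28 of them above 0 and 44 below, and 3 were called at least 2-fold higher and 1 at least 2-fold lower. Both counts are a smaller share of the list than the 6.45% higher and 4.40% lower among all measured genes, and the 4 genes are given as values. Galm, the mutarotase that feeds galactose to the Leloir pathway, was at 20.99 CPM with brequinar and 10.1 CPM with vehicle, a ratio of 2.08 (1.87 to 2.32). St3gal5, the sialyltransferase that makes the ganglioside GM3, had 485 counts (10.4 CPM) with brequinar and 116 counts (2.34 CPM) with vehicle, for a ratio of 4.45 (3.63 to 5.50). St3gal6, another sialyltransferase, had only 82 counts with brequinar and 13 with vehicle, for a ratio of 6.72 (3.72 to 13.1) at a mean level just above the limit for being measured. Man1a, a Golgi mannosidase that trims glycans before branching, was the gene called lower, at 17.4 CPM with brequinar and 39.0 CPM with vehicle, a ratio of 0.445 (0.410 to 0.484). With total counts alone St3gal5 was the 1 gene called higher, since Galm was then at a log2 ratio of 0.96 and St3gal6 was below the limit, and Man1a, Calr, Galk1 and Man2a2 were the 4 called lower. At 1.5-fold with TMM, 8 of the 72 were higher and 11 lower, near the 12.7% in each direction among all measured genes.

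Neighbours of the main list were mixed. Of the 10 dolichol genes, 6 were below 0 and 4 above, among them Srd5a3, the polyprenol reductase that makes dolichol, with a ratio of 1.25. Of the 8 genes for mannose and fucose nucleotides, 5 were below 0 and 3 above, among them Mpi, the mannose phosphate isomerase, with a ratio of 1.49. Named after their values were seen, the remaining 6 oligosaccharyltransferase subunits (Tusc3, Magt1, Ostc, Ost4, Krtcap2 and Tmem258) were all below 0, with a median log2 ratio of -0.17, and the interval of Tusc3 spanned equality. Prkcsh, the regulatory subunit of glucosidase II, was at 119 CPM with brequinar and 200.2 CPM with vehicle, and Calr showed a log2 ratio of -0.92. In the opposite direction, Edem1, a lectin that sends misfolded glycoproteins to degradation, had a log2 ratio of 0.57. Of the 10 genes for glycoprotein folding and trimming in the endoplasmic reticulum, 8 were below 0 and 2 above, with a median of -0.33. Of the 7 measured wider-list genes for Golgi mannosidases and branching, 6 were below 0 and 1 above, with a median of -0.28. At 1.5-fold, 3 of the 7 were lower (Man1a, Man2a2 and Fut8), where 12.7% of all measured genes were. Fut8 had a ratio of 0.640, and Man1c1 went the other way with a ratio of 1.41.

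**Figure D5:**
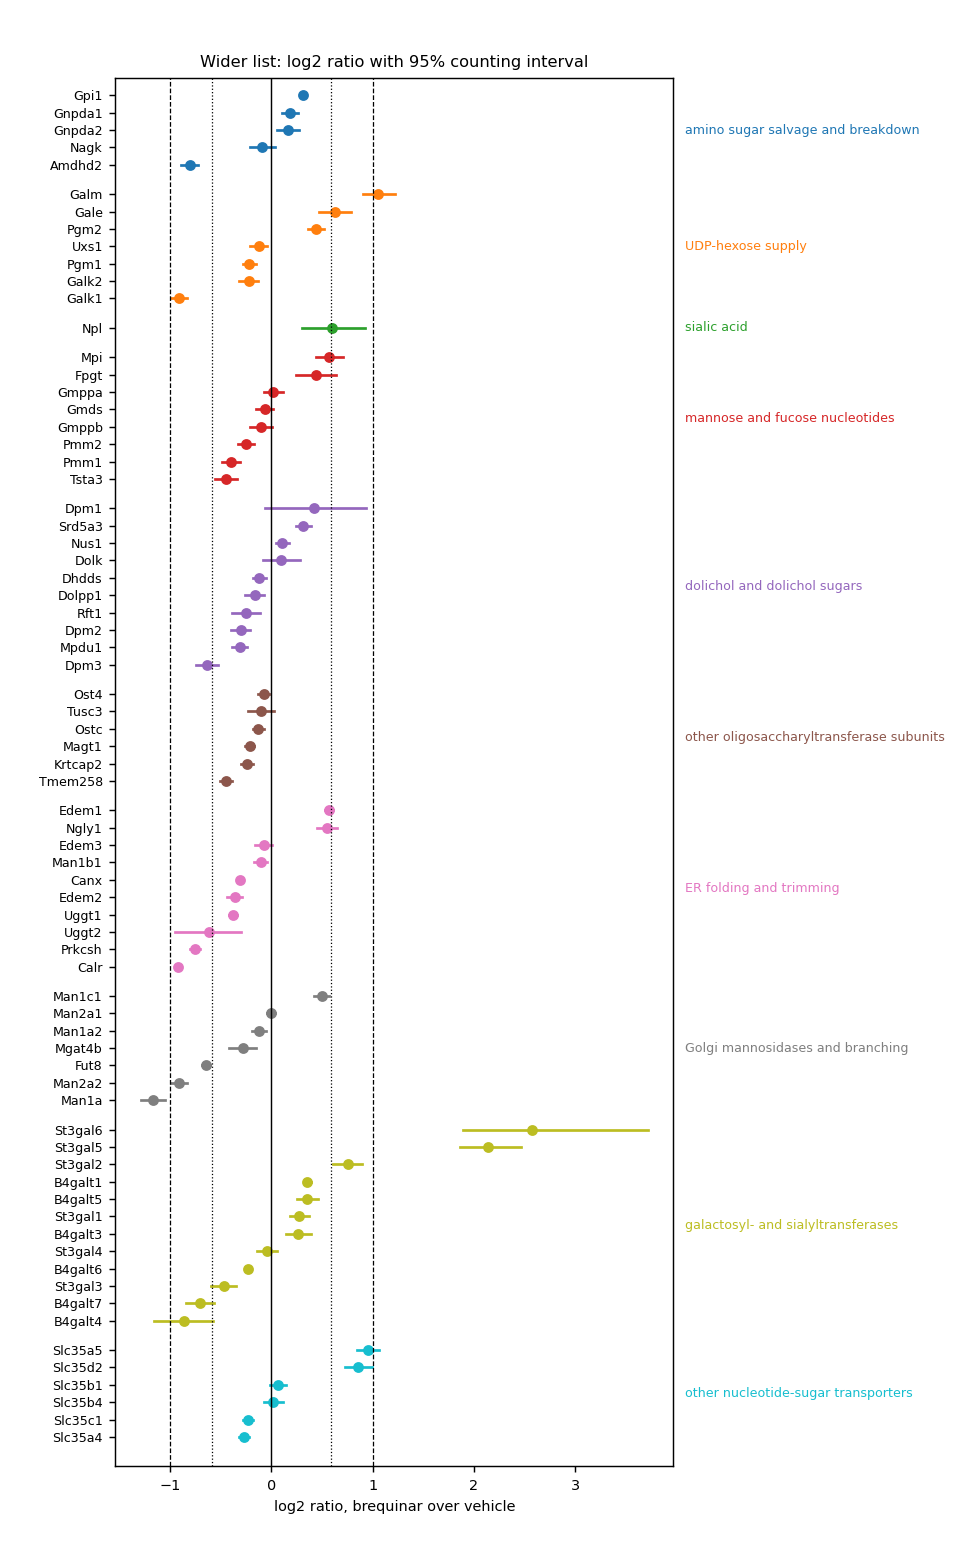
Log2 ratio of brequinar over vehicle with its 95% counting interval for the 72 measured genes of the wider list by role; dotted lines mark 1.5-fold and dashed lines 2-fold. St3gal6, St3gal5 and Galm lie right of the 2-fold line and Man1a left of it, and all 6 further oligosaccharyltransferase subunits lie left of 0.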

How the data were processed

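The deposited table holds whole-number read counts per Ensembl gene for both libraries. STAR 2.4.2a, Picard 1.99, Picard 2.2.4 and the build mm10 are named in the submitters' processing notes. The counting program, its strand setting and its annotation are not given in those sources. Per the labels, paired reads of 101 bases came from a stranded poly(A) kit. The 4 closing lines that name no gene held 20.2% of reads in the brequinar library and 21.6% in the vehicle library and were left out.

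Symbols, exon overlaps and lengths came from GENCODE mouse release 21 (GRCm38), promoters from RefSeq. Counts were scaled by TMM (edgeR 4.0.16), log2 ratios used a prior count of 2, and genes averaging 1 CPM or more were kept. With 1 library per group no test was run, and a call means at least 2-fold. Intervals are exact Clopper-Pearson intervals of the ratio given the summed count. The ratio script was tested on simulated data. A count of 0 was given a ceiling of 3 counts.

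The text describes in full the 12 genes with the largest ratio in either direction and the first and last gene of each role, and of the wider list those past 2-fold; other genes named were chosen after their values were seen. The genes and lists were chosen with earlier results of these data known. The alternatives were DESeq2 1.42.0 size factors and other scalings, prior counts, filters, thresholds, thinning of the deeper library and transcript lengths.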

Additional observations from a re-analysis of the deposited data

How the results depend on the processing

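Every other scaling shifted all log2 ratios downward, so the 28 measured genes below 0 could not turn under it, and of the 15 above 0, 13 stayed above. With total counts alone, and with totals that omit the 50 most abundant and the mitochondrial genes, 1 gene (Mgat5) was called lower at 2-fold, and the median log2 ratio of the 43 genes was -0.20 and -0.19; with total counts alone all measured genes shifted by -0.09, so the median relative to that shift was unchanged by construction. With total counts alone, 59.0% of all measured genes were below 0, and 30 of the 43 were. A threshold of 1.5-fold gave 1 gene higher and 2 lower. On the wider list, total counts alone gave 1 gene higher and 4 lower (662 and 632 of all 11511 genes measured under it), and the 1.5-fold threshold gave 8 higher and 11 lower (12.7% of all measured genes each way). Using all annotated exons as length, the median level was 11.3 CPM per kilobase with brequinar and 11.4 with vehicle. Among values of single genes under these alternatives, 437 stayed within their counting interval and 94 moved beyond it, none with a called value changing sign. No paired analysis was possible because each group has 1 library, and for the same reason no library could be left out. Counting error was small (median interval half-width 0.07 log2 units). Differences between animals and sorts cannot be told apart from treatment.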

Other observations

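Further sugar pathways were looked at after the values above were known, so their lists carry no test. Among all measured genes, 6.45% were at least 2-fold higher and 4.40% at least 2-fold lower with brequinar, and each list below holds 1 call, too few to stand apart from those shares. UDP-glucose, the product of Ugp2, is also the donor for glycogen, and of 19 glycogen genes 15 were measured, 8 of them above 0 and 7 below. Pygl, the liver-type glycogen phosphorylase that is also the main form of myeloid cells, was at 617 CPM with brequinar and 326 CPM with vehicle, a log2 ratio of 0.92. Gyg, the glycogenin that primes glycogen, was at 260.4 CPM with brequinar and 199.9 CPM with vehicle, and Gys1, the glycogen synthase, at 88.4 CPM with brequinar and 79.6 CPM with vehicle. Ppp1r3d, a subunit that targets a phosphatase to glycogen, was the only gene of that list at least 2-fold higher, at 14.1 CPM with brequinar and 5.25 CPM with vehicle. Gaa, the lysosomal glucosidase that degrades glycogen, was at 50.6 CPM with brequinar and 85.1 CPM with vehicle. Pygb and Phka2 of the same list were also lower with brequinar. Pygb had a ratio of 0.756 (0.716 to 0.799) and Phka2 a ratio of 0.740 (0.716 to 0.766).

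Genes of selectin ligand and core O-glycan synthesis (16 of 19 measured, 6 above 0 and 10 below) held 1 call: Gcnt1, the branching enzyme of core O-glycans, was at 3.49 CPM with brequinar and 8.63 CPM with vehicle, a log2 ratio of -1.30. Fut7, the fucosyltransferase that completes sialyl Lewis x, was at 44.4 CPM with brequinar and 41.5 CPM with vehicle. Among genes of gangliosides, polysialic acid and sialidases, 7 of 15 were measured. All 7 were below 0, as were 49.9% of all measured genes, and the interval of B3galt4 spanned equality. St3gal5, which makes GM3 itself, is not on that list and went the other way, at a ratio of 4.45 (3.63 to 5.50). St8sia4, a polysialyltransferase, was at 22.4 CPM with brequinar and 45.6 CPM with vehicle, a log2 ratio of -1.02, and B4galnt1, the ganglioside synthase that acts after GM3, was at 555 CPM with brequinar and 677 CPM with vehicle.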
